A study of Mus musculus with 12 samples.

Results

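The 8 arrays of both progranulin-modified NSC-34 lines were compared as 1 group with the 4 arrays of control cells, and the genes that moved the same way in each modified line were then described. The arrays were chosen by their titles, shPGRN 1 to 4, hPGRN 1 to 4 and Control 1 to 4, and these 12 are all arrays of the series. A gene was called shared when its adjusted p was under 0.05 in each modified line against control, in the same direction. By this rule 303 of 11058 genes tested were shared. NSC-34 is a mouse line made by fusing embryonic spinal cord motor neurons with neuroblastoma cells. NSC-34/shPGRN cells stably carry a short hairpin RNA against coding stretches of mouse Grn in the vector pRS and were selected with puromycin. NSC-34/hPGRN cells stably carry human progranulin in pcDNA3 and were selected with G418. The methods describe an empty-vector control for each vector, and the sources used here do not say which of them was hybridized as Control, or whether a line is a clone or a pool. All groups were plated at 200000 cells, stepped from 10% to 5% and then 1% serum at intervals of 24 h, and lysed 24 h later. The 4 arrays of a line are separate flasks of it. The p-values therefore rest on the scatter among flasks and not among independently made lines, and a trait of the control line, of its vector or of its selection cannot be told apart from a trait that both modified lines share.

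Progranulin, encoded by Grn, is a secreted glycoprotein built of granulin repeats. Neurons take it up and deliver it to lysosomes, where it is cleaved into granulins, and partial loss of it in humans causes a form of frontotemporal dementia. It also acts outside the cell as a growth and survival factor for motor neurons. Since one modified line holds less progranulin and the other holds more, genes that moved together in both were not ordered by the amount of progranulin.

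Arrays were Illumina mouse whole-genome BeadChips, and the deposited intensities are linear and background-subtracted. Between 18996 and 19260 probes per array lay above an estimated background limit of 12.7 to 13.2. Log2 values of arrays within a line correlated at 0.988 to 0.996 over genes, which are not independent replicates. The mean Euclidean distance over gene log2 values was 21.3 to 24.7 between arrays of 1 line, 31.0 between the modified lines, 32.8 from control to shPGRN and 29.0 from control to hPGRN cells. Of 20 markers of the parents of NSC-34, 13 were tested, and Chat, Mnx1, Nefl, Tubb3, Snap25 and Mycn had no probe that passed the background filter. The summed intensity of the tested ones was 9479 to 10190.2 in shPGRN, 13048 to 14869 in hPGRN and 11877 to 12603 in control cells. Most markers of other cell types were not kept, among them Gfap, Olig2, Sox10, Itgam, Ptprc and Col1a1. Fewer cells of a type and less RNA per cell cannot be told apart in such lysates.

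With the mean of both modified lines set against control, 1151 genes (10.4% of those tested) passed an adjusted p under 0.05 in limma, 602 higher (5.44%) and 549 lower (4.96%). That average also calls genes that moved in 1 line alone. Against the same 4 control arrays, 1609 genes (14.6%) passed in shPGRN cells, 7.53% of all genes upward and 7.02% downward. In hPGRN cells 783 (7.08%) passed, 3.8% upward and 3.28% downward. The shared genes were 176 higher (1.59% of all genes tested) and 127 lower (1.15%), together 2.74%. All of them also passed in the averaged comparison. The rule made that nearly certain, since the averaged change has the smaller SE. Because each line was compared with the same control arrays, a chance deviation of those arrays enters the calls of both lines. The count of shared genes is therefore a description. With at least 1.5-fold in each line as well, 28 higher (0.253%) and 12 lower genes (0.109%) remained. All 8 modified arrays lay above all 4 control arrays for 158 of the 176 higher genes, and below them for 103 of the 127 lower genes. Over all genes tested, such a separation was seen upward in 2.88% and downward in 2.18%. When the line was treated as a random block, 162 genes passed the averaged comparison, and all 162 were shared genes. Arrays of a line were given 1 correlation over all genes (0.153). Control is a single line, so a spread between control lines could not be estimated. When the 8 arrays were given 1 common mean, 546 genes passed and the 303 shared genes were among them. The separation of arrays and the counts under these models rest on the same values as the rule, so they are no separate support. Without Control replicate 3 the shared genes were 124 higher and 81 lower.

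The median change of the shared higher genes was 0.51 on the log2 scale in shPGRN cells and 0.44 in hPGRN cells, with highest values of 3.87 and 4.24. The median of the shared lower genes was -0.45 and -0.43, reaching -1.401 and -1.92. The shared genes had a median log2 level of 8.82, against 7.67 for all genes tested. Just inside the threshold lay Slain2 (larger adjusted p in limma 0.0482), Cpne8 (0.0491) and Myl2 (0.0492), and just outside lay Tmtc1 (0.05004), Slc6a9 (0.0501) and Mrs2 (0.0504).

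**Figure D1:**
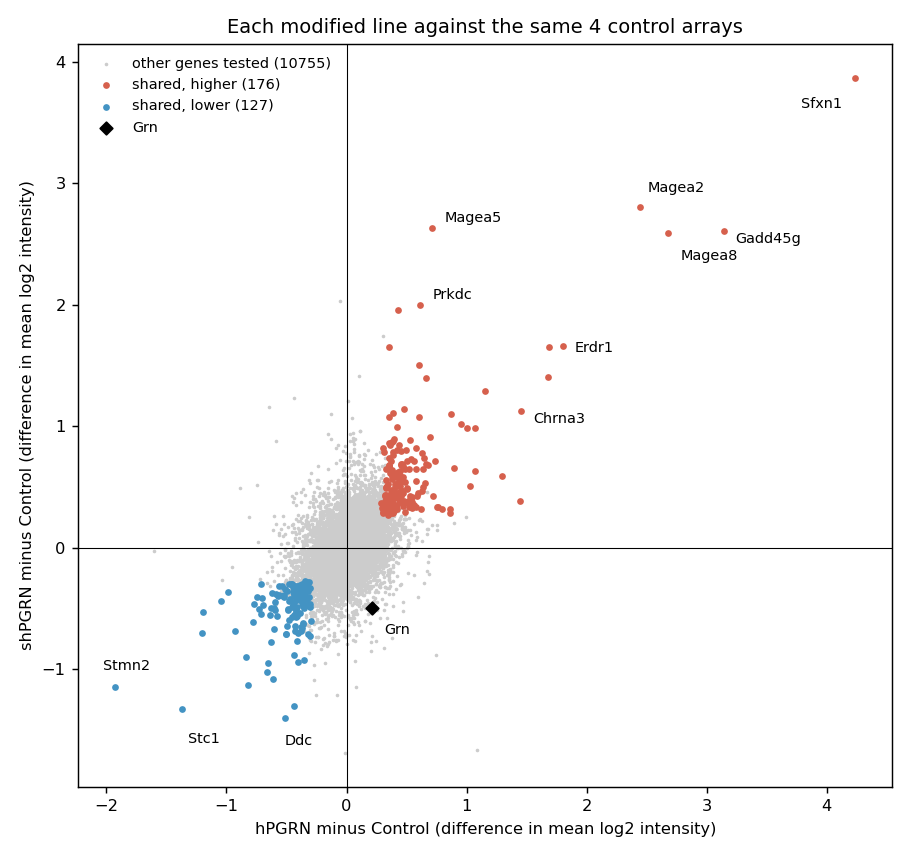
Difference in mean log2 intensity from the 4 control arrays in hPGRN (x axis) and shPGRN cells (y axis), 1 point per gene. Red points are the 176 genes called higher in each line, blue points the 127 called lower in each, and Sfxn1 lies at 4.24 and 3.87. Both axes use the same control arrays.

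Grn itself was not among the shared genes. Its intensity was 646, 635, 665 and 502 on the shPGRN arrays, 922, 1273, 1043 and 956 on the hPGRN arrays and 896, 899, 811 and 942 on the control arrays. All shPGRN arrays were below the control arrays, while hPGRN and control arrays overlapped. The log2 fold change was -0.49 in shPGRN (SE 0.11, limma adjusted p = 0.00247) and 0.22 in hPGRN cells (SE 0.11, limma adjusted p = 0.248). For the 8 modified arrays against the 4 control arrays the difference was -0.14, with a two-sided exact permutation p of 0.529 over 495 arrangements, the smallest possible being 0.00202. That permutation treats all flasks as exchangeable, although they come from 3 lines and the modified lines lay on opposite sides of control in their means. Its p therefore decides nothing about Grn in either line. The probe reads the mouse transcript, and the overexpressed progranulin is human.

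Sfxn1, which encodes a mitochondrial serine transporter, showed the largest shared change. Its intensity was 1862, 1721, 1565 and 1553 in shPGRN cells and 2371, 1978, 2229 and 2149.6 in hPGRN cells. The control arrays read 44.2, 60.1, 43.0 and 41.9. Every modified array was far above every control array, with mean intensities 35.4 and 46.1 times that of control. The log2 fold change was 3.87 (SE 0.09, limma adjusted p = 1.89e-18) in shPGRN and 4.24 (SE 0.09, limma adjusted p = 2.60e-19) in hPGRN cells. A further kept probe of Sfxn1 gave 3.42 and 3.85.

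Gadd45g, a gene of growth arrest and the DNA damage response, was close to background in control cells. The control arrays read 13.97, 23.8, 13.9 and 15.5, against 409, 614, 451 and 431 in shPGRN and 669, 743, 722 and 717 in hPGRN cells. No modified array came near a control array. The log2 fold change was 2.61 (SE 0.10, limma adjusted p = 1.85e-14) and 3.14 (SE 0.10, limma adjusted p = 6.97e-16). A weaker probe of Gadd45g gave 0.84 and 1.19. Gadd45g and Sfxn1 lie close together on chromosome 13, 3 places apart in the order of tested genes. Fbxw17, an F-box protein gene 7 places before Gadd45g, rose as well, from 163 to 206 on the control arrays to 398 to 489 in shPGRN and 437 to 461 in hPGRN cells, with log2 fold changes of 0.99 and 1.00. The 8 other tested genes between Fbxw17 and Sfxn1 did not pass, with log2 values of -0.17 to 0.15 and -0.14 to 0.26 and a smallest adjusted p of 0.169 in limma. Fbp2, the muscle form of the gluconeogenic enzyme fructose-bisphosphatase, lies further along the same chromosome. Its arrays read 576, 395, 531 and 649 in shPGRN, 468, 647, 534 and 533 in hPGRN and 143, 85.6, 109 and 145 in control cells, and the log2 fold change was 1.66 and 1.68 (SE 0.13 in each, limma adjusted p = 4.92e-09 and 6.73e-09). Its tested neighbour BC052688, named after its values were seen, was shared too, at fitted values of 0.40 and 0.36, but was above background on none of the control arrays.

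The RefSeq promoters of these chromosome 13 genes are shown because these genes are among the largest shared rises. Each runs from 250 bases before to 50 after the start in build GRCm38.p6, with capitals at matches on either strand to the E-box CACGTG, the TATA box TATAAA, the GC box GGGCGG, the CCAAT box CCAAT, the AP-1 site TGANTCA or the CRE half-site TGACG. Sfxn1 (chr13:54071595-54071894, plus strand) holds the GC box, Gadd45g (chr13:51846425-51846724, plus strand) the E-box, the CCAAT box and the TATA box, and Fbp2 (chr13:62858351-62858650, minus strand) the E-box overlapping the AP-1 site and the CRE half-site. A match is a run of letters and was not tested as a binding site.
Sfxn1: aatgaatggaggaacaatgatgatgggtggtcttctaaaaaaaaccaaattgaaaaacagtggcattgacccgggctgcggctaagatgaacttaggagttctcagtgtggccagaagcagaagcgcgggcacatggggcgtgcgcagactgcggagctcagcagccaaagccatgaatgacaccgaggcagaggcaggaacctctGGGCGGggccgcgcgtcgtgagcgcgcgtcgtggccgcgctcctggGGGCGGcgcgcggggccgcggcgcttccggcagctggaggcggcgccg
Gadd45g: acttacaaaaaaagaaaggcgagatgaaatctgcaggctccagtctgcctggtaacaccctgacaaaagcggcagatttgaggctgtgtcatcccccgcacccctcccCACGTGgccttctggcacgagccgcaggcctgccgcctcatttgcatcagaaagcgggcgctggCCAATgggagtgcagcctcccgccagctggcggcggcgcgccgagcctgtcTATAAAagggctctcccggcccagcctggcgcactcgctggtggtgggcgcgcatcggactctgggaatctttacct
Fbp2: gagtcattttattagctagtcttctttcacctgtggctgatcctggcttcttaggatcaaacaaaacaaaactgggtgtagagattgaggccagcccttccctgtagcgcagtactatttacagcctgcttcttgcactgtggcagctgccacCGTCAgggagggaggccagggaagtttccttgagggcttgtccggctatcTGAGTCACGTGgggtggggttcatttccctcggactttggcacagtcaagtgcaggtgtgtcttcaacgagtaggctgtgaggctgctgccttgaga

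Mage family genes on the X chromosome, which are normally read in the testis and in tumors, rose in both lines. Magea8 read 679.8, 545, 638 and 698 in shPGRN and 686, 622, 786.5 and 647 in hPGRN cells, against 39.3, 26.5, 56.0 and 64.2 in control cells. Magea2 read 754, 969, 896 and 835 in shPGRN and 645, 633, 644 and 692 in hPGRN cells, against 73.3, 56.4, 49.5 and 65.9. All modified arrays of both genes stood far above the control arrays. The log2 fold changes were 2.59 and 2.68 for Magea8 (limma adjusted p = 6.50e-14 and 3.96e-14) and 2.81 and 2.45 for Magea2 (limma adjusted p = 9.90e-16 and 1.28e-14). Between the modified lines Magea8 did not pass (difference -0.09, interval -0.31 to 0.14) and Magea2 did (0.36, interval 0.17 to 0.55). Magea5 differed between the lines. It read 530.1, 566, 538 and 652 in shPGRN, 102, 92.2, 96.0 and 101 in hPGRN and 43.1, 14.3, 27.7 and 43.2 in control cells, with log2 fold changes of 2.63 and 0.71 and a difference between the modified lines of 1.92 (95% interval 1.71 to 2.13). Further probes of Magea5 gave 0.38 and -0.07, and 0.15 and 0.07, and with its probes averaged Magea5 was not shared (larger adjusted p = 0.0535, limma). Of the 12 tested genes on the list of X-linked cancer-testis and Mage genes, these 3 were the shared higher ones. Over all genes tested 1.59% were shared higher and 1.15% shared lower. Maged2, a broadly expressed member named after its values were seen, was the shared lower one (-0.46 and -0.30). Magea genes are related copies, and how far each probe reads its neighbours was not tested.

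The Magea promoters are shown because Magea5 differed more between the modified lines than Magea8 and Magea2 did. All lie on the minus strand of the X chromosome in GRCm38.p6, Magea8 at chrX:154995801-154996100, Magea2 at chrX:155033243-155033542 and Magea5 at chrX:155061504-155061803. Magea8 and Magea2 carried the same base at 92.6% of 285 aligned positions, and Magea5 at 64.3% of 286 with Magea8 and 66.7% of 273 with Magea2. Capitals mark the longest run that Magea8 and Magea2 share, of 70 bases, while the longest run of Magea5 with either is 9 bases.
Magea8: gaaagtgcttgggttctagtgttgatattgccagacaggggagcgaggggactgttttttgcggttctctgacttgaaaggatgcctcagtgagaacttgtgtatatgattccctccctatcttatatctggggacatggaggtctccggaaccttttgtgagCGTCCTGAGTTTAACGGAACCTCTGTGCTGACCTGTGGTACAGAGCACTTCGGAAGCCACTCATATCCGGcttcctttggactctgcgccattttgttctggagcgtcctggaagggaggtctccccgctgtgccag
Magea2: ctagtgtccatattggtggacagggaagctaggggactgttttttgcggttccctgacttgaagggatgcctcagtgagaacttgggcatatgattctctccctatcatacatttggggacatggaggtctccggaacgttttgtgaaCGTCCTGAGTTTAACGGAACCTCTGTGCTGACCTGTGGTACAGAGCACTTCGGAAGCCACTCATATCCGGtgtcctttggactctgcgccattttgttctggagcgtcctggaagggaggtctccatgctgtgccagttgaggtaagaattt
Magea5: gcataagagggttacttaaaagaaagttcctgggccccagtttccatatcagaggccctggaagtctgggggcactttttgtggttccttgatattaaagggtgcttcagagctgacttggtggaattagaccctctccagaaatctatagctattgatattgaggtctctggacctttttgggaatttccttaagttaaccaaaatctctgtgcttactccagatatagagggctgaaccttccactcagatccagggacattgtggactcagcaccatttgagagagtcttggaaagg

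Chrna3, a nicotinic acetylcholine receptor subunit of autonomic ganglia, read 288, 275, 299 and 275 in shPGRN, 366, 359, 381 and 401 in hPGRN and 77.2, 115, 88.7 and 86.7 in control cells. The groups did not overlap, and the log2 fold change was 1.12 and 1.46 (SE 0.09 in each, limma adjusted p = 7.38e-09 and 1.19e-10). Sct, the precursor of the hormone secretin, was at 1638 to 2309.9 and 1774 to 1907 against 724 to 845, with log2 fold changes of 1.29 and 1.15. Slc10a4, a synaptic vesicle protein of cholinergic and monoaminergic neurons, was at 391 to 442 and 302 to 393 against 161 to 227, with 0.91 and 0.69. Pmp22, a membrane protein of peripheral myelin, was at 636 to 753 and 713 to 898 against 329.8 to 525, with 0.66 and 0.89, and Lix1, a gene expressed in the developing limb, at 99.3 to 156 and 107 to 142 against 12.9 to 39.4, with 1.02 and 0.95 and with 3 of 4 control arrays above background. For these genes all modified arrays lay above all control arrays.

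Erdr1, named for a role in erythroid differentiation, was at 843, 848, 894 and 718 in shPGRN, 840.3, 994, 876 and 946 in hPGRN and 178, 188, 252 and 231 in control cells. Its groups were well apart, and the log2 fold change was 1.66 and 1.80 (SE 0.10 in each, limma adjusted p = 5.91e-11 and 2.79e-11). Smap2, an activator of Arf GTPase turnover, and Zmpste24, the protease that matures lamin A, lie on chromosome 4 with a single tested gene between them, the collagen gene Col9a2, which was shared higher as well. Smap2 was at 1193 to 1239 and 1235 to 1326 against 525 to 634, with log2 fold changes of 0.99 and 1.07, and Zmpste24 at 422 to 516 and 323 to 445 against 157 to 239.7, with 1.10 and 0.87. Anxa2, a phospholipid-binding annexin, rose from 663 to 887 on the control arrays to 1228 to 1487 and 1303 to 1519.9, with 0.71 and 0.74. Tcf7l2, a transcription factor of the Wnt pathway, rose from 82.6 to 106 to 163 to 239 and 178 to 234, with 0.68 in each line. Tmprss9, a membrane serine protease, and the vomeronasal receptor genes Vmn1r123 and Vmn1r93 were above background on 1 of 4 control arrays each, so their fitted changes of 1.398 and 0.66, 1.41 and 1.67, and 0.69 and 0.66 depend on the offset. Vomeronasal receptors form a family of near-identical copies whose probes may read each other.

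**Figure D2:**
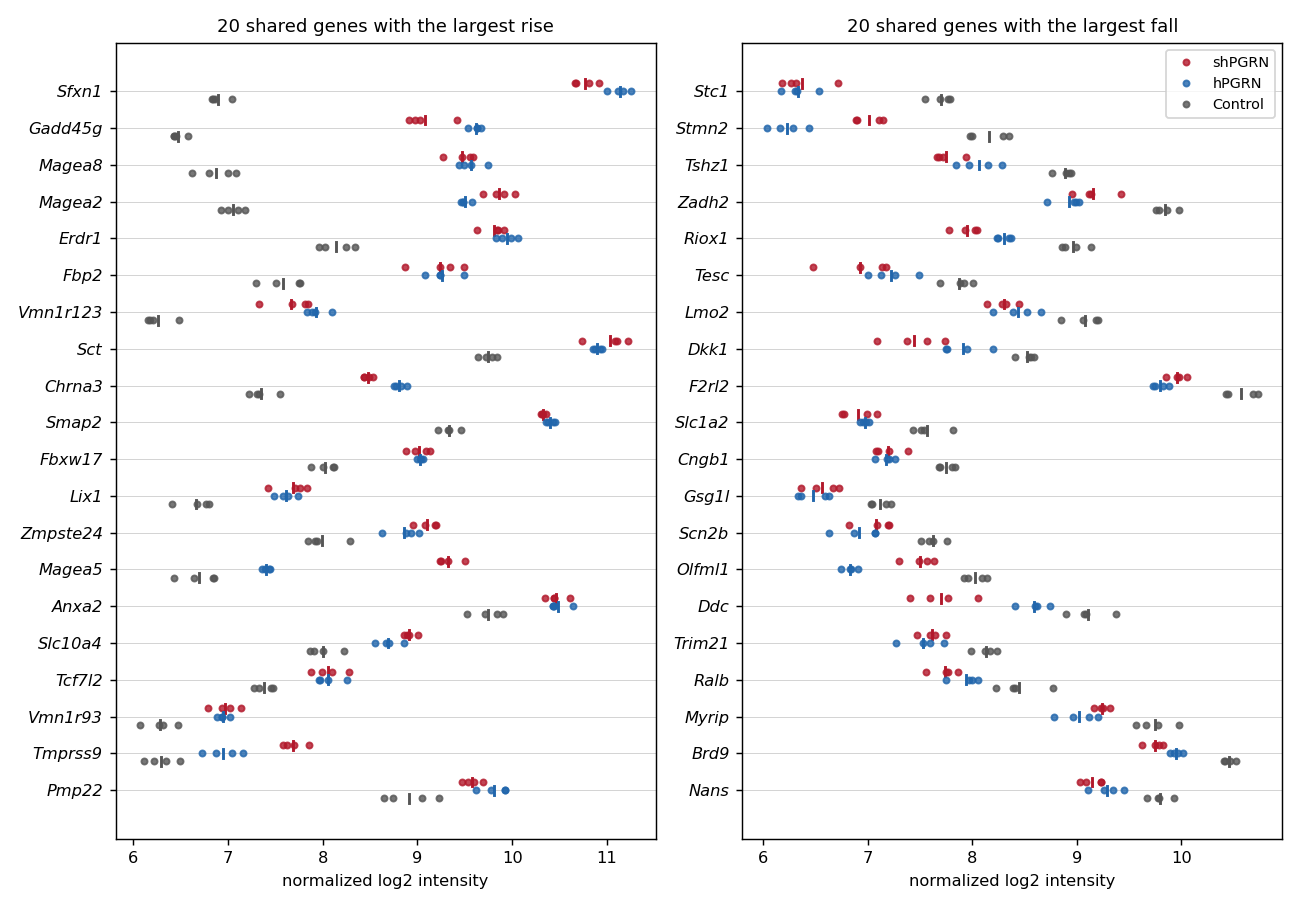
Normalized log2 intensity on each of the 12 arrays (points) with the line mean (vertical bar) for the 20 shared genes with the largest rise (left) and the largest fall (right), ranked by the smaller of the changes in shPGRN (red) and hPGRN cells (blue) against control (grey). By the rule for this choice no modified array overlaps a control array, and Sfxn1 stands furthest apart.

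By the smaller of the changes in the modified lines, Stc1 ranked first among the shared falls, and in their average Stmn2 did. Stc1 encodes stanniocalcin, a secreted hormone of calcium and phosphate balance. The control arrays read 115, 149, 146 and 135, against 4.83, 32.9, 7.40 and 0.442 in shPGRN and 6.93, 7.86, -0.09 and 20.6 in hPGRN cells. Only 1 of 4 arrays of each modified line was above background. The fitted log2 fold change was -1.33 and -1.37 (SE 0.11 in each, limma adjusted p = 1.81e-08 and 1.85e-08). Stmn2, a microtubule-binding protein of growing axons, read 46.9, 66.1, 69.7 and 46.1 in shPGRN, 6.11, 14.6, -6.49 and -0.488 in hPGRN and 243, 180.4, 184 and 254 in control cells. It was lower in both lines and lowest in hPGRN cells, where 1 of 4 arrays was above background, with fitted log2 fold changes of -1.15 and -1.92 (SE 0.11 in each, limma adjusted p = 1.37e-07 and 3.54e-11). On deposited values floored at the lowest positive value before log2, which spreads values at or below 0 widely, neither Stc1 (larger adjusted p = 0.377, limma) nor Stmn2 (0.777) was shared. Over 22 alternatives the larger adjusted p of Stc1 ran from 1.56e-09 to 0.377, and over 23 that of Stmn2 from 2.08e-08 to 0.777.

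Adjacent genes on chromosome 18 fell together. Tshz1, a zinc finger transcription factor, read 174, 134, 139 and 130.3 in shPGRN, 179, 212, 158 and 241 in hPGRN and 422, 405, 362 and 415 in control cells. Zadh2, its next tested neighbour, which encodes a prostaglandin reductase, read 484, 613, 492 and 425 in shPGRN, 348, 429, 446 and 436 in hPGRN and 861, 812, 936 and 793 in control cells. All modified arrays of both genes were below the control arrays, with log2 fold changes of -1.13 and -0.82 for Tshz1 (SE 0.10 in each, limma adjusted p = 5.44e-08 and 1.59e-05) and -0.69 and -0.92 for Zadh2 (SE 0.10 in each, limma adjusted p = 6.28e-05 and 3.63e-06).

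Ddc, the decarboxylase that makes dopamine and serotonin, read 121, 97.8, 146 and 194 in shPGRN, 316, 321, 355 and 268 in hPGRN and 463, 404, 473 and 593 in control cells. The log2 fold change was -1.401 (SE 0.12, limma adjusted p = 4.20e-08) and -0.52 (SE 0.12, limma adjusted p = 0.0119), and without hPGRN replicate 4 the larger adjusted p was 0.0522, so Ddc was then no longer shared. Among the other falls, Slc1a2, a glutamate transporter best known from astrocytes, was at 35.8 to 64.5 and 49.9 to 57.3 against 101 to 153, with log2 fold changes of -0.67 and -0.60. Gsg1l, an auxiliary subunit of AMPA receptors, was at -0.55 and -0.64, Scn2b, a beta subunit of sodium channels, at -0.54 and -0.71, and Cngb1, a subunit of cyclic nucleotide-gated channels, at -0.56 and -0.57. Gsg1l was above background on 3 and 2 of 4 modified arrays. For Scn2b a further probe moved slightly the other way (0.14 and 0.11), and with probes averaged it was not shared (larger adjusted p = 0.0736, limma).

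Dkk1, a secreted Wnt antagonist, read 141, 63.8, 94.6 and 118 in shPGRN, 143, 221, 144 and 175 in hPGRN and 314, 269, 301 and 305 in control cells, with log2 fold changes of -1.08 and -0.61 (SE 0.12 in each, limma adjusted p = 1.57e-06 and 0.00296). F2rl2, a protease-activated receptor, fell by 0.61 and 0.77 on the log2 scale, Lmo2, a LIM-domain transcription adaptor of blood cells, by 0.77 and 0.63, and Tesc, a calcium-binding protein, by 0.95 and 0.65. Riox1, a ribosomal oxygenase, was at -1.02 and -0.66, Brd9, a bromodomain subunit of chromatin remodeling complexes, at -0.71 and -0.50, and Myrip, which links secretory granules to myosin, at -0.50 and -0.73. The rest of the 20 were Ralb, a Ras-like GTPase (-0.71 and -0.51), Trim21, an antibody-binding ubiquitin ligase (-0.51 and -0.60), Nans, the sialic acid synthase (-0.64 and -0.50), and Olfml1, an olfactomedin-like gene (-0.53 and -1.20). Of the 40 genes with the largest shared rises and falls, Ddc was the single one to lose its call when any 1 of the 12 arrays was left out.

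Most shared genes did not pass between the modified lines. That contrast does not use the control arrays, but the rule for shared genes used the same modified arrays. It left out genes that moved in a single line or in opposite directions, so small differences are partly built in. Of the 303 shared genes, 67 (22.1%) passed an adjusted p under 0.05 between the modified lines. Of all genes tested 14.2% did, 6.93% with shPGRN higher and 7.28% with shPGRN lower. The median size of that difference was 0.13 on the log2 scale among shared genes and 0.12 among all genes. For 236 shared genes the 95% interval of the difference lay within 0.5 of 0 on the log2 scale, and for 236, not all of them the same, the difference did not pass. Among shared higher genes, 31 were higher in shPGRN and 13 higher in hPGRN cells, and among shared lower genes 8 were higher in shPGRN and 15 higher in hPGRN cells. Differences near 0 were seen among the 40 leading genes for Tcf7l2 (difference 0.00, interval -0.21 to 0.21), Fbxw17 (-0.01, interval -0.20 to 0.17), Cngb1 (0.01, interval -0.18 to 0.20) and Fbp2 (-0.03, interval -0.29 to 0.24). The widest gaps were Magea5 (1.92), Ddc (-0.89, interval -1.14 to -0.63), Stmn2 (0.78, interval 0.55 to 1.01), Tmprss9 (0.74, interval 0.52 to 0.96) and Olfml1 (0.67, interval 0.48 to 0.86). The count of 67 was 44 without hPGRN replicate 2 and 44 without hPGRN replicate 4.

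**Figure D3:**
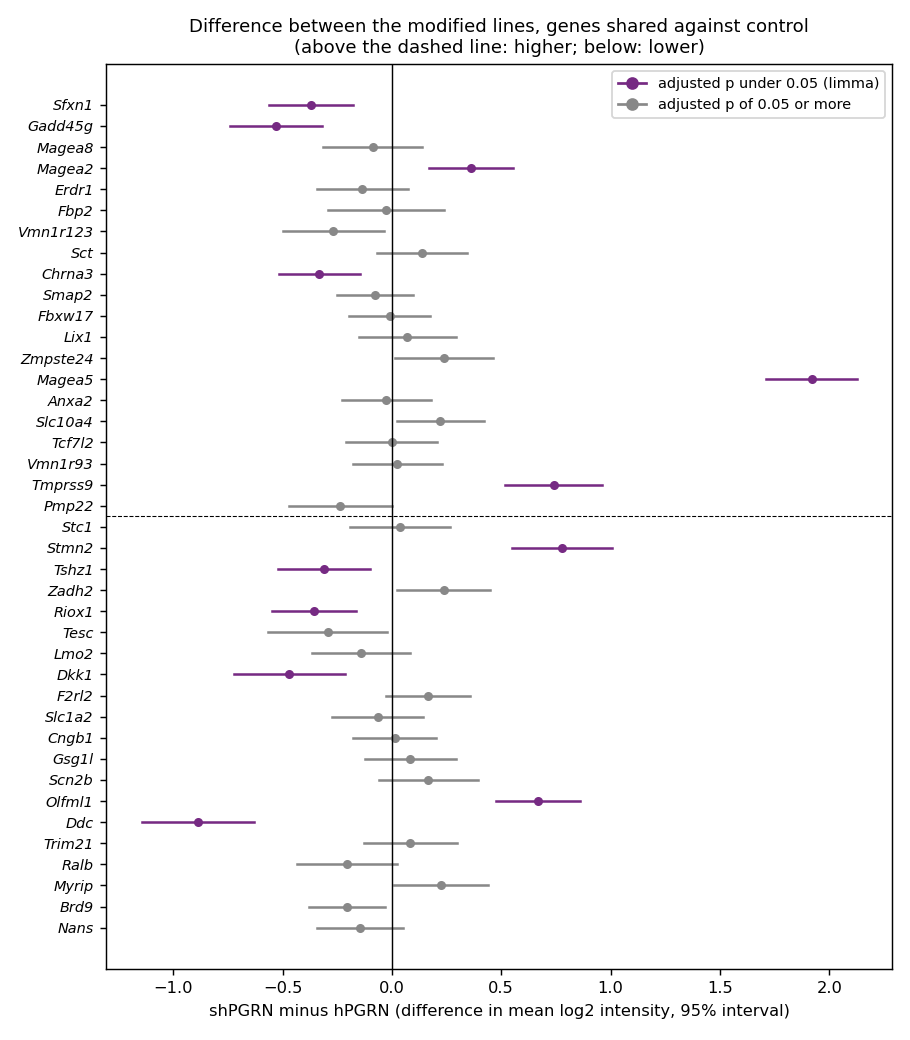
Difference between shPGRN and hPGRN cells in mean log2 intensity, with its 95% interval, for the 20 leading shared higher genes (above the dashed line) and the 20 leading shared lower genes (below it). Purple marks an adjusted p under 0.05 in limma, and Magea5, at 1.92, lies furthest from 0.

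The other shared genes were read through lists of neuronal, signaling, metabolic and organelle genes. Among the 37 lists, the most lower calls in the averaged comparison were on genes of growth cones and the neuronal cytoskeleton. Of 45 tested members, 12 were lower and 2 higher, against 4.96% lower and 5.44% higher of all genes, and the median difference was -0.09. Most of these calls came from shPGRN cells, where 14 members were lower (7.02% of all genes were), against 2 in hPGRN cells (3.28% of all genes). Besides Stmn2, the neuronal tubulin gene Tubb2b was shared lower and Dpysl3, a collapsin response mediator, shared higher. Map2, a dendritic microtubule protein named after its values were seen, was at -0.33 and -0.35, and passed in the average (-0.34, limma adjusted p = 0.0292) but in neither line alone (0.0557 and 0.0669).

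Lysosomal genes were called mostly upward. Of 53 tested members 8 were higher and 1 lower in the average, against 5.44% and 4.96% of all genes, with a median difference of 0.06. In shPGRN cells 13 were higher and 3 lower, against 7.53% and 7.02% of all genes. In hPGRN cells 5 were higher and 1 lower, against 3.8% and 3.28%. Tpp1, the lysosomal tripeptidyl peptidase that is deficient in a neuronal ceroid lipofuscinosis, was at 179.4 to 200.003 in shPGRN, 174 to 201 in hPGRN and 107 to 124 in control cells. The groups were apart, with log2 fold changes of 0.46 (SE 0.08, limma adjusted p = 0.000508) and 0.44 (SE 0.08, limma adjusted p = 0.00193), and a difference between the lines of 0.02 (interval -0.15 to 0.19). Psap, the precursor of the saposins and a partner of progranulin in lysosomal delivery, was shared higher as well (0.34 and 0.41). Its modified and control arrays overlapped, and it lost its call under 10 of 23 alternatives. A further probe of Psap gave 0.19 and 0.40 and did not pass in shPGRN cells (limma adjusted p = 0.323). Ctss, a cathepsin of immune cells, was shared lower and above background on control arrays only, at least 1.07-fold lower in each line against the background limit. Lysosomal genes chosen after their values were seen were Cd63, a membrane tetraspanin (0.72 and 0.21), Lgmn, an asparaginyl protease (0.49 and 0.28), Npc1, a cholesterol exporter (0.40 and 0.27), and Lamp1, a membrane glycoprotein (0.44 and 0.22), none of which passed in hPGRN cells.

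Extracellular matrix genes were called upward in 8 and downward in 1 of 28 tested, against 5.44% and 4.96% of all genes, with a median difference of 0.15. Without hPGRN replicate 4 and Control replicate 4 in turn the count upward was 5 and 3. Elastin, Eln, was the shared one. Axon guidance genes were called upward in 5 and downward in none of 33 tested, against the same shares of all genes, with a median of 0.09. Upward calls were 3 without Control replicate 1 and also without Control replicate 4. The ephrin gene Efna5 was the shared one. No median of these 4 lists changed sign under any of the 23 alternatives.

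Transcription factors and signaling genes of neuronal identity moved in both directions. Isl1, a homeodomain factor of motor and autonomic neurons, read 1589.8, 1749, 1277 and 1586 in shPGRN, 2428, 2157, 2226 and 2157 in hPGRN and 973, 1131, 1030.4 and 1118 in control cells, with log2 fold changes of 0.51 (SE 0.10, limma adjusted p = 0.000857) and 1.03 (SE 0.10, limma adjusted p = 2.36e-07). Of the 23 tested genes of motor neuron, cholinergic and autonomic identity 4 were higher and 4 lower in the average, against 5.44% and 4.96% of all genes. Tph2, the neuronal enzyme of serotonin synthesis, was shared higher (0.87 and 0.38), as was the synaptic calcium sensor Syt1 (0.45 and 0.60), which lies on the same chromosome. Of 41 tested synaptic vesicle and SNARE genes, 5 were higher and 3 lower in the average, against 5.44% and 4.96% of all genes. In shPGRN cells 3 were higher and 5 lower (median -0.10), against 7.53% and 7.02% of all genes. In hPGRN cells 6 were higher and 2 lower (median 0.10), against 3.8% and 3.28%. Of the average's upward calls 3 were made without shPGRN replicate 1 and 2 without hPGRN replicate 2 or Control replicate 3. Cebpb, a transcription factor of stress and inflammation, was at 0.80 and 0.46, Phlda1, an early response gene, at 1.07 and 0.61, and Eef2, a translation elongation factor, at 0.43 and 0.59. Ppard, a nuclear receptor of lipid metabolism, was at 0.38 and 0.45, although a further probe was at -0.02 and -0.17 and the mean of its probes was not shared (larger adjusted p = 0.281, limma).

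Of 56 tested genes on the list of DNA methylation, histone and chromatin enzymes, 3 were shared higher and none shared lower, against 1.59% and 1.15% of all genes tested. Kdm6a, an X-linked histone demethylase, was at 267 to 326 in shPGRN, 237 to 347 in hPGRN and 139.6 to 156 in control cells, with log2 fold changes of 0.74 and 0.65. Bmi1, a Polycomb subunit, was at 0.35 and 0.54 and Kdm4b, a further histone demethylase, at 0.53 and 0.41. A further probe of Kdm6a was at 0.63 and 0.65, and one of Kdm4b at 0.25 and 0.12. Kdm4b lost its call under 1 of 23 alternatives (larger adjusted p = 0.0792, limma). With probes averaged the list held 2 shared higher genes. Chromatin genes outside the list were shared lower, among them Brd9 and the demethylase gene Kdm1b (-0.43 and -0.41), named after its values were seen. Prkdc, the kinase of DNA end joining, read 333, 266, 304 and 245 in shPGRN, 45.8, 61.1, 68.1 and 88.6 in hPGRN and 12.0, 30.2, 12.3 and 16.03 in control cells, where 2 of 4 arrays were above background. It rose in both lines but far more in shPGRN cells, with log2 fold changes of 2.00 and 0.62 and a difference of 1.38 (interval 1.16 to 1.602).

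On the interferon list 1 of 30 tested genes was shared, and on the list of MHC class I presentation 1 of 18, both lower. Over all genes tested 1.15% were shared lower, and a single gene does not set a list apart. Oas1g, an interferon-induced gene, was at -0.44 and -1.04, Psmb10, a subunit of the immunoproteasome, at -0.45 and -0.44, these being the shared genes of the lists. Thy1, a surface glycoprotein of neurons and fibroblasts, was at -0.39 and -0.44. Phlda2, a maternally expressed imprinted gene, was at -0.37 and -0.99. Of the 30 interferon genes 3 were lower and none higher in the average, against 4.96% and 5.44% of all genes. In shPGRN cells 3 were higher and 1 lower (median 0.07), against 7.53% and 7.02% of all genes. In hPGRN cells none was higher and 8 were lower (median -0.17), against 3.8% and 3.28%. Between the modified lines 11 were higher in shPGRN than in hPGRN cells, against 6.93% of all genes. Markers of macrophages and microglia summed to intensities of 55.8 to 88.6 in shPGRN, 54.6 to 89.6 in hPGRN and 30.9 to 92.6 in control cells, with 5 of 16 tested and the defining genes Itgam, Ptprc and Cx3cr1 not kept. Markers of fibroblasts summed to 2058 to 2256, 1433 to 1717 and 1587 to 1827, with 7 of 16 tested. Markers of Schwann cells, which include Pmp22, summed to 706 to 843, 755 to 969 and 407 to 628, with 3 of 12 tested and Sox10 not kept. Markers of astrocytes and oligodendrocytes, which include Slc1a2, summed to 813 to 964, 773 to 994 and 861 to 994, with 4 of 15 tested and Gfap and Olig2 not kept. Their part in these results was not tested.

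Further shared members of the lists held their call less well. Of the 38 shared list members outside the 40 leading genes, 22 lost it in at least 1 line when a single array was left out, with larger adjusted p-values of up to 0.997 in limma for Syn3, which was not above background on any control array and is at least 1.15-fold and 1.07-fold higher. They are Bcl2, Car12, Cdkn1a, Ctss, Dpysl3, Dusp1, Efna5, Egr1, Eln, Gata3, Kcnab2, Lgr5, Mcm6, Mgst2, Ndufa9, Ndufv2, Phlda3, Psap, Ret, Sfxn4, Syn3 and Tubb2b. A further kept probe of Syn3 gave 0.16 and 0.06. The brightest kept probe was chosen anew for each set of arrays, and whether a change of probe gave the value of 0.997 was not tested.

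**Figure D4:**
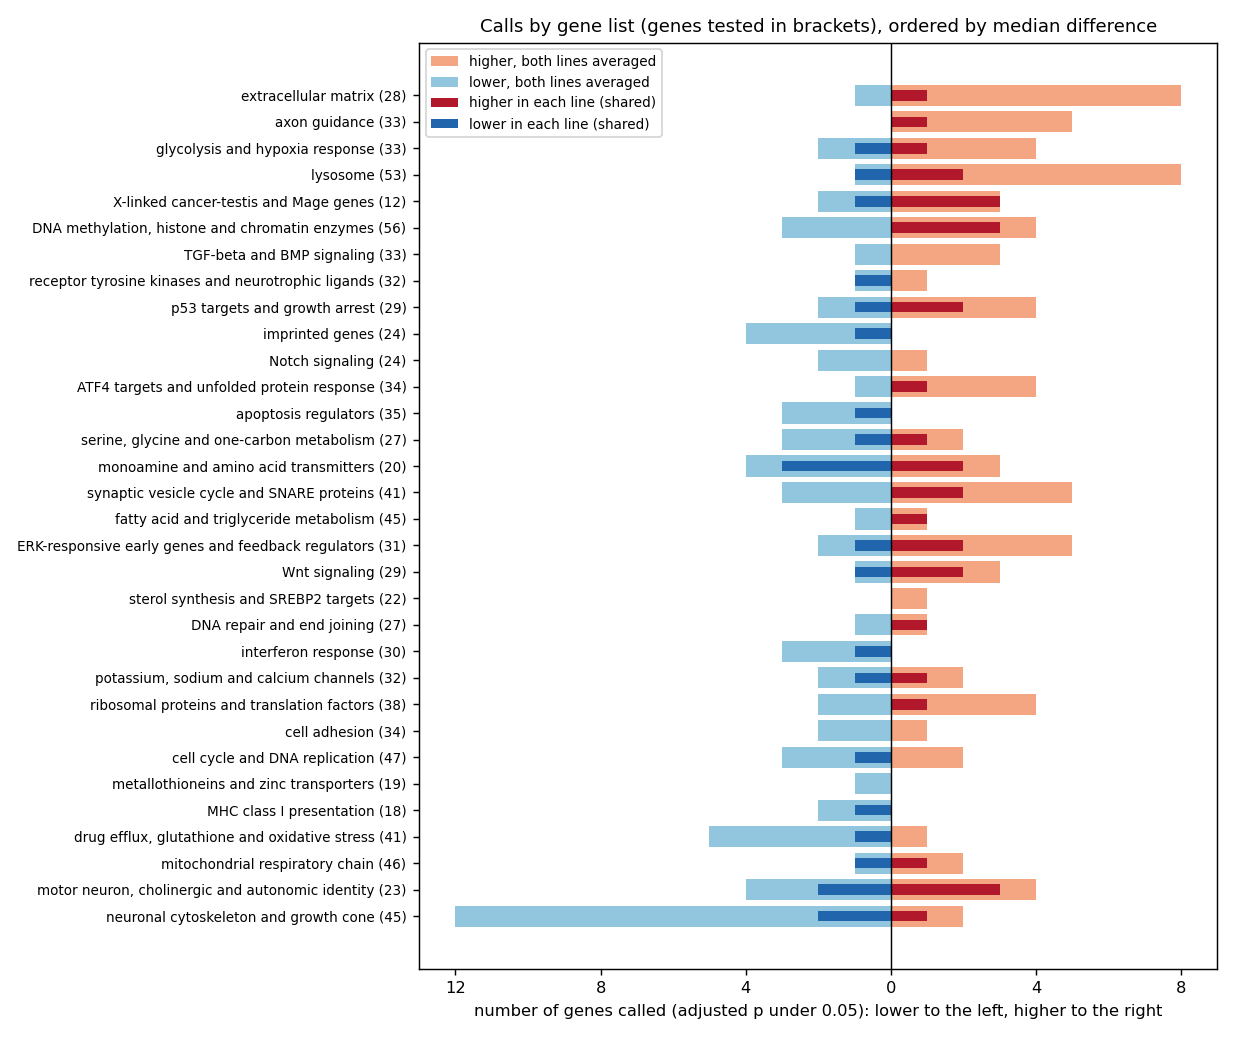
Number of genes called higher (right) and lower (left) for each gene list other than the cell type markers, with the genes tested in brackets. Light bars count calls with both modified lines averaged and dark bars count genes called in each line, and lists are ordered by their median difference from control. Neuronal cytoskeleton genes, with 12 lower and 2 higher, and lysosomal and extracellular matrix genes, with 8 higher and 1 lower each, show the most calls. Of all genes tested, 5.44% were higher and 4.96% lower in the average.

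The shared genes were unevenly placed along the chromosomes. This was noticed after the values were seen and is given as a description. Chromosome 10 held 37 shared higher genes and 1 shared lower among 557 tested, which is 6.82%, against 2.74% of all genes. Chromosome 17 held 23 higher and 1 lower among 558, and chromosome 4 held 23 higher and 6 lower among 684. In the other direction, chromosome 13 held 20 lower and 12 higher among 366 (8.74%), chromosome 6 held 17 lower and 6 higher among 551, and chromosome 1 held 17 lower and 5 higher among 565. Chromosome 16 held a single shared gene, which is higher, among 347. The median change over all tested genes of chromosome 10 was 0.11 in shPGRN and 0.10 in hPGRN cells, so the shift was not limited to the called genes. On chromosome 17 it was 0.01 and 0.12, with a median difference between the lines of -0.12. Without Control replicate 3 the shared higher genes were 24 on chromosome 10 and 15 on chromosome 17, and the shared lower genes were 10 on chromosome 13, 7 on chromosome 6 and 11 on chromosome 1. Without hPGRN replicate 2 chromosome 1 held 11 shared lower genes, and without hPGRN replicate 3 chromosome 6 held 11.

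Along the order of tested genes the shared genes formed runs in a single direction. In 362 bins of about 30 neighbouring genes, 193 bins held no shared gene and 17 held at least 4. Of these 17, 16 held shared genes of 1 direction only, and the 17 together held 77 of the 302 shared genes that could be placed. On chromosome 10 the bin from Btg1 to Tmem19 held 6 shared higher genes, among them the antiproliferative gene Btg1, Syt1, Phlda1 and Tph2. The median change of its 30 genes was 0.35 in shPGRN and 0.23 in hPGRN cells, and 90.0% and 86.7% of its genes were above 0. On chromosome 1 the bin from Golt1a to Cdc73 held 6 shared lower genes, with medians of -0.18 and -0.16 and 26.7% and 20% of genes above 0. On chromosome 17 the bin from Rab5a to Vmac held 6 shared higher genes (medians 0.27 and 0.18), and at the end of chromosome 4 the bins from Klhl21 to Slc35e2 and from Cdk11b to Noc2l held 5 each (medians 0.19 and 0.18, and 0.27 and 0.20). On chromosome 13 the bin from Prl3d3 to Eef1e1 held 5 shared lower genes (medians -0.15 and -0.22). Over all bins, the medians ran from -0.26 to 0.35 in shPGRN and from -0.24 to 0.23 in hPGRN cells, with 5th and 95th percentiles of -0.14 and 0.16, and -0.10 and 0.15.

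The exception among the 17 bins was that from Sh3pxd2a to Csf2ra on chromosome 19, with 2 genes in each direction. In the bins from Btg1 to Tmem19 and from Golt1a to Cdc73 the median difference between the modified lines was 0.08 and -0.06, while over chromosomes 12 and 19 as a whole it was 0.13 and -0.13. Chromosome 12 held 52 genes higher and 7 lower in shPGRN cells, and 5 higher and 24 lower in hPGRN cells, with 4 shared higher and 3 shared lower. Chromosome 19 held 14 higher and 72 lower in shPGRN cells, and 17 higher and 10 lower in hPGRN cells, with 4 shared higher and 7 shared lower.

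Immediate neighbours were often shared in the same direction. The places on either side of each shared gene were counted, so a neighbouring pair counts from both of its genes. Of the 351 places beside shared higher genes 42 held a shared higher gene (12.0%, against 1.59% of all genes tested) and 1 a shared lower gene. Of the 251 places beside shared lower genes 16 held a shared lower gene (6.37%, against 1.15%) and 1 a shared higher gene. Such a neighbour in the same direction was found for 39 shared higher and 16 shared lower genes. Under 22 alternatives the share for higher genes was 9.59% to 12.1% and that for lower genes 3.77% to 10.7%. For lower genes it was 10.2% without shPGRN replicate 4, 4.06% without hPGRN replicate 4, 3.88% without Control replicate 2 and 3.77% without Control replicate 3. Neighbouring pairs, chosen after their values were seen, include Tshz1 and Zadh2, Slc1a2 and the hyaluronan receptor Cd44 (-0.45 and -0.60), and Mib2, a ubiquitin ligase of Notch ligands (0.82 and 0.58), with Fndc10 (0.72 and 0.51). Some pairs are copies of 1 gene, such as Magea8 with Magea2, H2ac19 with H2ac18 and Vmn1r93 with Vmn1r123, whose probes may read both. The gene order is that of RefSeq on GRCm38.p6. Whether the chromosomes of these lines differ in copy number was not measured by the arrays and was not tested.

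**Figure D5:**
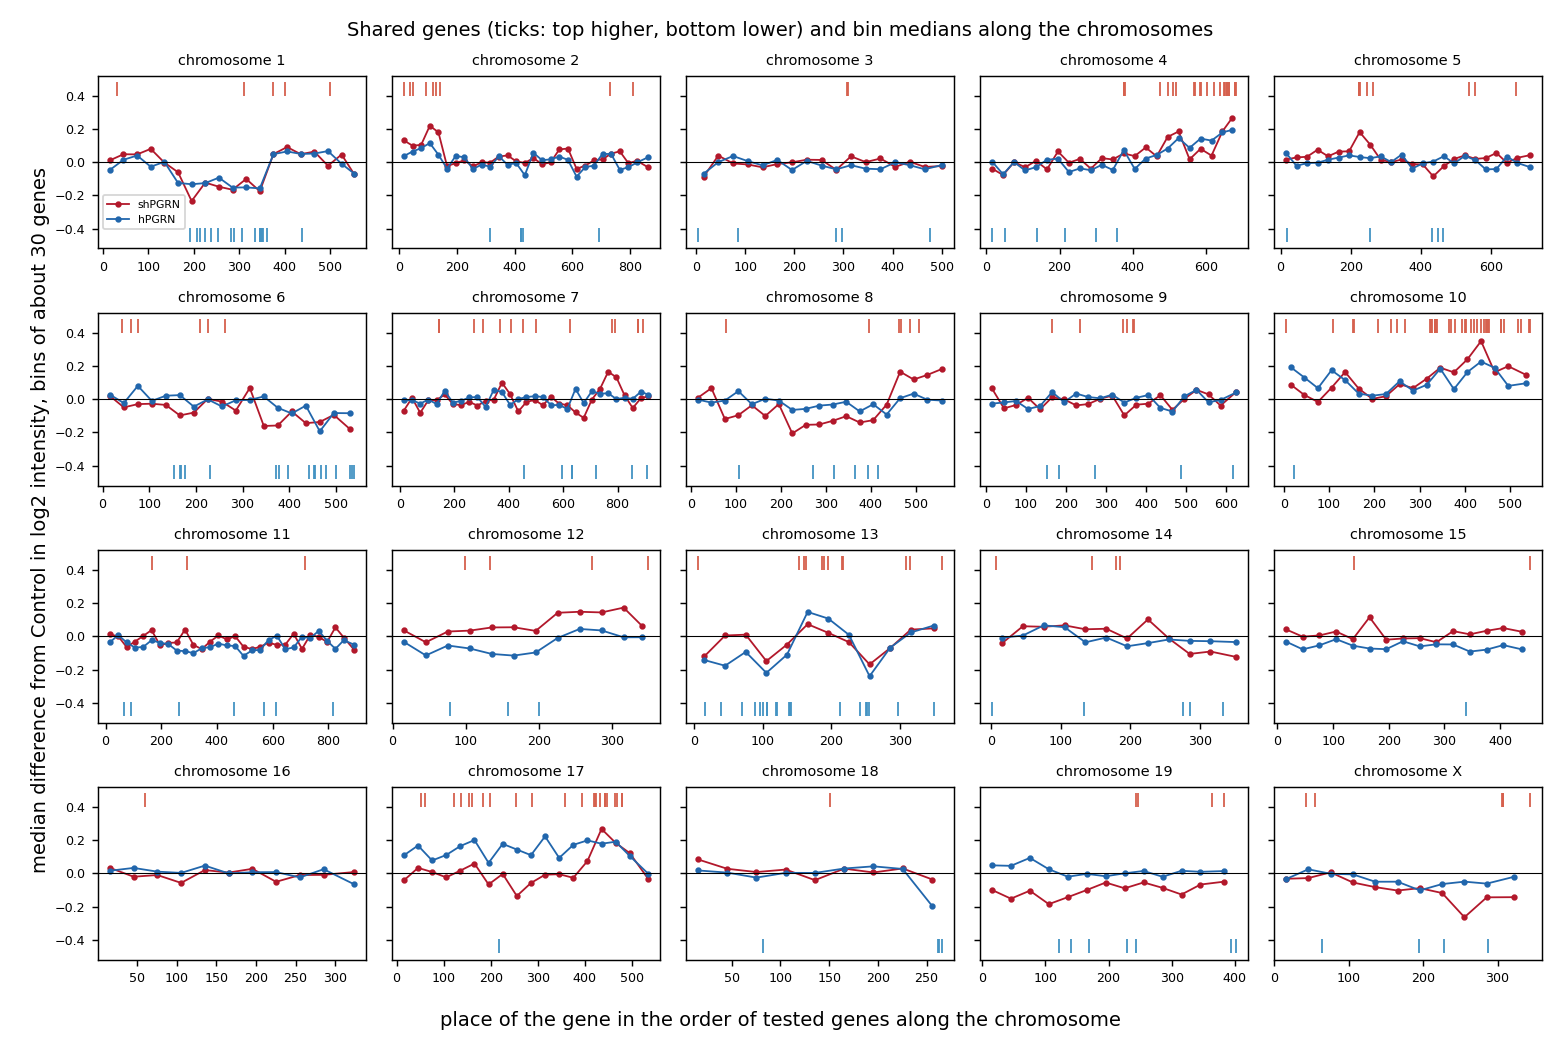
Tested genes of each chromosome in their RefSeq order (x axis, place in that order) and the median difference from control in log2 intensity over bins of about 30 genes (y axis) in shPGRN (red line) and hPGRN cells (blue line). Ticks at the top mark shared higher genes and ticks at the bottom shared lower genes, and on chromosome 10 both lines rise together to 0.35 and 0.23.

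Promoters of shared genes were compared with those of all tested genes as a description. Of the 176 shared higher genes 146 had a RefSeq promoter, of the 127 shared lower genes 99, and of all 11058 genes tested 8974, and the first listed promoter of a gene was used. The E-box CACGTG was found in 19.2% of promoters of shared higher genes and 12.1% of those of shared lower genes, against 9.92% of all. The TATA box TATAAA was in 11% and 14.1% against 8.08%, and the AP-1 site TGANTCA in 8.90% and 7.07% against 5.19%. The GC box GGGCGG was in 64.4% and 54.5% against 62.7%, the CCAAT box CCAAT in 37.0% and 40.4% against 39.0%, and the CRE half-site TGACG in 28.1% and 30.3% against 31.0%. Both strands were searched. Of the leading genes shown above, Gadd45g and Fbp2 hold the E-box and Sfxn1 does not.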

How the data were processed

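The authors deposited 1 table of linear, background-subtracted intensity values for the probes of all 12 arrays. The methods name lumi for normalization, and no source used here states the steps behind this table. Identical values recur across arrays, such as 9129.017 for Psap in shPGRN 1 and hPGRN 4 and 898.39 for Pmp22 in hPGRN 2 and 4. The table was therefore already matched across arrays, as quantile normalization does, before the steps given here. Per the file headers a further table holds 24 columns of signals and detection values whose names match no sample, and it was not used. Since 31.7% to 31.8% of an array's values lie below 0, background was corrected by normexp (offset 50) before quantile normalization and log2, in limma 3.58.1 under R 4.3.3. A deposited value near 0 becomes 72.1 before log2, so fold changes of dim genes are understated.

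A limit for background was estimated per array from the values at and below its most frequent value, at p under 0.05. The 20261 probes above it on at least 4 of 12 arrays were kept. On the array 34885 probes have a single gene symbol, 18 have several and 10378 have none. A gene is given by its brightest kept probe, and 4154 genes have over 1. The limma model held 3 line means over the 12 arrays, and p-values were adjusted by Benjamini-Hochberg over 11058 genes within a comparison.

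The genes named are Grn, the 20 shared genes in each direction with the largest change (by the smaller of the changes in the modified lines, where modified and control arrays do not overlap), and up to 3 shared members of each of 37 gene lists with the smallest adjusted p in the average. The members, lists and tests were chosen with earlier results of these data known.

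On simulated data in which both lines changed together, with 10642 genes tested, the steps called as shared 34.8% of 92 genes changed 1.5-fold and 57.3% of 96 genes changed 2-fold, and 0% of the calls were unchanged genes. The simulated noise was that among flasks, with no spread between lines and no trait of the control line. The 0% therefore says nothing about false calls from those sources. Alternatives changed the background correction, scaling, filter, probe of a gene, array weights, model of the lines, replicate block and the arrays left out. Gene order and promoters came from RefSeq, which the Entrez IDs of 34807 probes matched.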

Additional observations from a re-analysis of the deposited data

Results flagged for a closer look

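In 11 of 237 groups of 4 arrays, 1 array lay apart from the others. The values give the gap to the nearest array as a share of the group's range. Chance sets apart about 1 in 20 groups. In shPGRN cells these were replicate 4 for Grn (lowest, 0.831) and Eef2 (lowest, 0.834), replicate 2 for Phlda3 (highest, 0.969) and Ndufv2 (highest, 0.953) and replicate 3 for Ctss (lowest, 0.838). In hPGRN cells they were replicate 1 for Anxa2 (highest, 0.914) and Zadh2 (lowest, 0.843) and replicate 3 for Kdm4b (lowest, 0.837). Among control arrays, replicate 2 stood apart for Sfxn1 (highest, 0.871) and Gadd45g (highest, 0.831) and replicate 4 for Vmn1r123 (highest, 0.82901).

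Of the named genes, 26 passed in limma between the modified lines. The log2 difference, shPGRN minus hPGRN, was above 0 for 13. These were Magea5 (1.92), Prkdc (1.38), Stmn2 (0.778), Tmprss9 (0.74), Olfml1 (0.668), Phlda2 (0.62), Oas1g (0.602), Tph2 (0.497), Car12 (0.481), Phlda1 (0.468), Magea2 (0.362), Cebpb (0.34) and Efna5 (0.318). It was below 0 for the other 13, which were Ddc (-0.886), Grn (-0.708), Cdkn1a (-0.545), Gadd45g (-0.53), Isl1 (-0.519), Eln (-0.479), Dkk1 (-0.47), Sfxn1 (-0.368), Riox1 (-0.356), Chrna3 (-0.332), Tshz1 (-0.312), Tubb2b (-0.31) and Kcnab2 (-0.309).

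Among 3029 kept probes with no gene symbol, which entered no comparison of genes, 36 were higher and 17 lower in both modified lines.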

How the results depend on the processing

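The count of 303 shared genes was 40 with a change of at least 1.5-fold in each line, 118 at an adjusted p under 0.01, and 205 to 306 when 1 array was left out. The average of both modified lines called 1151 genes, 546 with 1 mean for the 8 arrays, 162 with the line as a random block, and 781 to 1131 with 1 array left out. For hPGRN against control 783 genes were called, and 517 to 873 with 1 array left out, lowest without hPGRN replicate 4 and 520 without Control replicate 3. For shPGRN against control the range was 1313 to 1616. The 67 shared genes that differed between the modified lines were 40 with an offset of 16, 38 with floored values, 40 with shifted values, 44 with no filter on dim probes, and 44 to 70 with 1 array left out. Array weights gave 374 shared genes and median scaling 304. The deposited arrays were already matched to each other, so the choice of scaling could change little and is no separate check.

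Arrays with the same replicate number correlated at -0.161 to 0.129 around their line means, and the numbers were not treated as pairs. With a replicate block 1038 genes were called for both modified lines against control, 1488 for shPGRN against control and 684 for hPGRN against control, and of 278 shared genes 57 differed between the modified lines.

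Of 78 named genes besides Grn, 43 were called under all 23 alternatives, 35 were lost under at least 1, and none reversed. Floored values lost 8 of the 40 leading genes. The flasks of 1 line, the number of arrays and the dim probes limit the precision.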
